A study of Mus musculus with 20 samples.

Results

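The 43 DNA replication genes described here code for the proteins that license origins, unwind and copy the DNA, supply deoxynucleotides and rebuild chromatin on the daughter strands. The set was a fixed list of replication and S phase genes, given by symbol, and all 43 were found among the 31053 genes of the count matrices. Levels were read in 20 single-cell RNA-seq libraries from 13 mice of 3 transgenic genotypes labelled C57BL/6N, while the study's methods place the Eµ-TCL1 line on C57BL/6J. Spleens came from 5 mice of the Eµ-PRMT5 line, 4 of the Eµ-TCL1 line and 4 of the Eµ-PRMT5/TCL1 cross, sub-mandibular nodes from 3 Eµ-TCL1 and 4 Eµ-PRMT5/TCL1 mice, and 7 mice gave both tissues. Eµ-PRMT5 mice carried human PRMT5, an arginine methyltransferase, Eµ-TCL1 mice carried human TCL1, a coactivator of AKT whose expression in B cells gives a leukemia resembling chronic lymphocytic leukemia, and Eµ-PRMT5/TCL1 mice carried both. Both transgenes were driven by an immunoglobulin heavy chain promoter and enhancer active in B cells, so no transgene is meant to be expressed in T or myeloid cells. The Eµ-PRMT5 line had several founders, tissues were collected at the humane endpoint, ages are not in the labels, and no library from a mouse without a transgene was analysed here. The paper reports the longest median survival for Eµ-PRMT5 mice and the shortest for Eµ-PRMT5/TCL1 mice. Age at collection may thus differ between genotypes and cannot be told apart from genotype here. Sexes were mixed and not balanced between genotypes, with 12 of the 20 libraries female by their own transcripts, so a part of any genotype difference cannot be told apart from sex without a covariate.

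Replication is prepared in G1, when the origin recognition complex, CDC6 and CDT1 load the MCM2-7 helicase as an inactive ring. At the start of S phase CDC45 and the GINS complex, brought in with MCM10, turn that ring into a moving helicase. Polymerase alpha and primase lay primers, polymerases delta and epsilon extend them on the PCNA clamp that the RFC complex loads, and FEN1 and LIG1 join the lagging strand fragments. Many of these genes are transcribed by E2F factors once RB is phosphorylated, so their mRNA is known to peak around G1/S and is low in resting lymphocytes. Leukemic B cells in this mouse model are mostly resting in blood, and division takes place largely in the lymphoid tissues. Myeloid precursors are by contrast a dividing compartment, and plasma cells have mostly left the cycle.

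E2F sites are the sequence feature best known for this gene set, and the windows below are shown for that reason. Promoters of 300 bases (250 before to 50 after the RefSeq start) were available from RefSeq for 35 of the 43 genes, on build GRCm38.p6. The letters TTTGGCGC, TTTCCCGC, TTTGCCGC and TTTCGCGC were searched on both strands, and some matches overlap each other. In the 6 windows the match is in capitals, written 5′ to 3′ along the strand of the gene.
Cdc6 (ATPase of the licensing complex): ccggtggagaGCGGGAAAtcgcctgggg
Orc1 (largest subunit of the origin recognition complex): tcggttagtgGCGCGAAAagttttctcc
Mcm5 (helicase subunit): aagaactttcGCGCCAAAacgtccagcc
Mcm7 (helicase subunit): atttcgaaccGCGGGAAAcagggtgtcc
Pola1 (catalytic subunit of polymerase alpha): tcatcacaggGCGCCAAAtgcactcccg
Uhrf1 (reader of hemimethylated DNA): ccgagtcgggTTTCGCGCgcccaggcgt
The windows lie at chr11:98908003-98908030 (plus strand) for Cdc6, chr4:108579417-108579444 (plus) for Orc1, chr8:75109350-75109377 (plus) for Mcm5, chr5:138172031-138172058 (minus) for Mcm7, chrX:93632276-93632303 (minus) for Pola1 and chr17:56304118-56304145 (plus) for Uhrf1, all upstream of the RefSeq start that the windows were cut from. In GENCODE vM21, whose genes can start further upstream, the matches of Mcm5 and Pola1 lie before the gene, those of Cdc6 and Uhrf1 in an intron, that of Mcm7 in a UTR exon and that of Orc1 in an exon of a non-coding transcript. A match was present in 14 of 35 members (40%), in 10 of 31 other replication genes (32.3%), in 1 of 23 mitosis genes (4.35%) and in 704 of 27025 genes with a promoter (2.6%). CCAAT, a promoter element known from genes of the G2/M phase, was present in 60% of the members, 82.6% of the mitosis genes and 41.1% of all genes. The members thus differed from the mitosis genes in which of these letters their promoters held. The genes themselves lie on 15 chromosomes with at most 7 on any of them, so they are not a single cluster.

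Cells were assigned to classes by clusters and marker genes, and the members were kept out of the genes used for clustering. This gave 40227 B-like cells, 32528 T-like cells, 3131 plasma-like cells and 933 myeloid precursor-like cells among 84231 cells. Of the markers fixed for each class, 6 to 8 of 8 were present in every B-like cluster, 7 to 9 of 9 in every T-like cluster, 6 to 7 of 8 in every plasma-like cluster and 5 to 7 of 8 in every myeloid precursor-like cluster. Total UMIs (unique transcript molecules) ranged from 9348094 to 72440894 per library. Of the 17 B-like clusters 14 drew over 50% of their cells from 1 library, as did 5 of 10 T-like clusters and all 4 plasma-like clusters, so a class comparison between groups sets different clusters against each other. The 2636 B-like cells of Eµ-PRMT5 spleen 4 stood apart: they had a median of 18262 UMIs per cell against 4227 to 12562 in the other libraries, and the spleen comparisons that use it are given with and without it. In Eµ-PRMT5 spleen 4 only 46 T-like cells were found, and it did not enter the T-like tests. Barcodes shared between libraries (4559 over 190 pairs) were close to the 4536.9 that independent draws of barcodes give.

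Myeloid precursor-like cells held the most replication transcripts of the 4 classes, and plasma-like cells had the lowest range. Summed over the 43 genes, the level was 2785 to 6740 CPM (counts scaled to a fixed total of UMIs in that class and library) in the 8 libraries with at least 20 myeloid precursor-like cells. It was 712 to 3617 CPM in B-like cells, 855 to 3900 CPM in T-like cells (20 libraries each) and 296 to 1422 CPM in plasma-like cells (12 libraries). Free RNA, read from barcodes of 10 to 100 UMIs as described below, was not subtracted from these values. Its summed level of the 43 genes was 862 to 3286 CPM over libraries, with a median of 1245 CPM. The class medians were 3799 CPM in myeloid precursor-like, 1226.5 CPM in B-like, 1094 CPM in T-like and 517 CPM in plasma-like cells. Only the myeloid precursor-like median was thus above that of free RNA. Within libraries, myeloid precursor-like cells were above B-like and T-like cells in 8 of 8, and plasma-like cells were below B-like cells in 12 of 12 and below T-like cells in 11 of 12. Immunoglobulin transcripts made up 12.2 to 58.8% of plasma-like UMIs and at most 9.73% in the other classes. With these left out of the total, plasma-like cells had 626 to 2208 CPM and were below B-like cells in 11 of 12 libraries (Eµ-TCL1 spleen 3 was the exception, at 843 against 836 CPM) and below T-like cells in 10 of 12. B-like cells were above T-like cells in 13 of 20 libraries, so that pair had no fixed order.

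**Figure D1:**
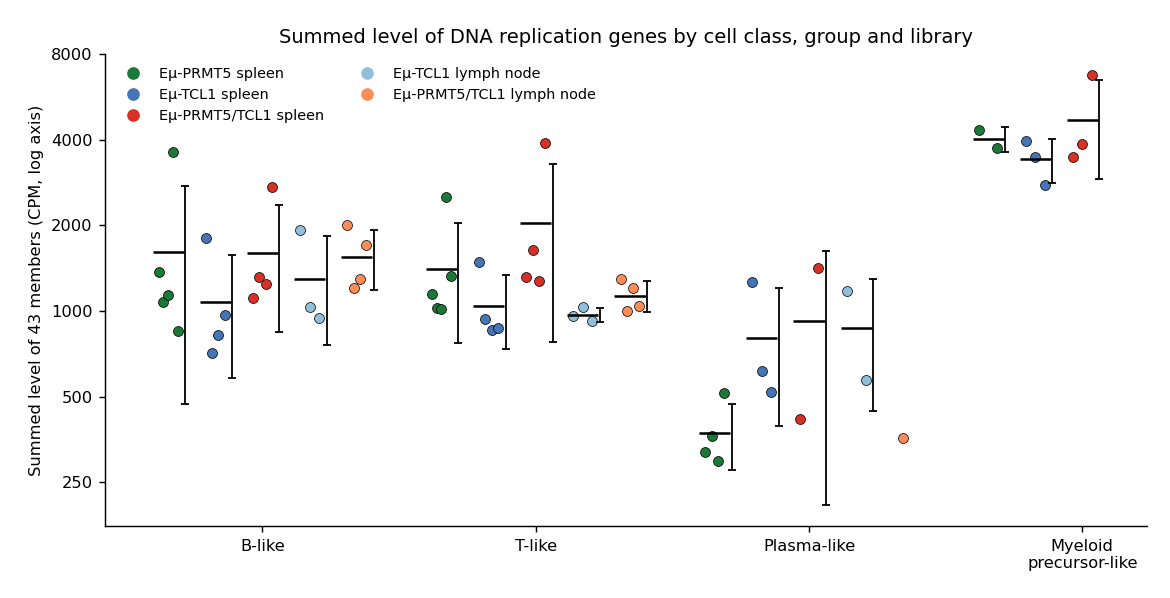
Summed level of the 43 genes in CPM (logarithmic axis) in B-like, T-like, plasma-like and myeloid precursor-like cells, with 1 point per library, bars at the group mean and whiskers of 1 SD where a group has 2 or more libraries. Myeloid precursor-like cells lie highest (2785 to 6740 CPM), plasma-like cells have the lowest range (296 to 1422 CPM, with immunoglobulin UMIs in the total), and Eµ-PRMT5 spleen 4 (3617 CPM) and Eµ-PRMT5/TCL1 spleen 4 (2731 CPM) stand above the other B-like points of their groups.

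The order of the genes by level was alike at the top of the B-like and T-like classes. In B-like cells the highest medians over 20 libraries were those of Slbp, which binds the stem-loop of histone mRNA (128 CPM), Mcm6 (92.04 CPM), Pcna (91.8 CPM) and Pold1 (76.5 CPM). Slbp at 118 CPM, Mcm6 at 107 CPM and Pcna at 100.3 CPM led in T-like cells. Mcm6 and Pcna do not differ in B-like cells beyond their spread, which for Mcm6 ran from 35.2 to 220.1 CPM over libraries. The lowest medians in B-like cells were those of Gins1 (2.93 CPM), Mcm10 (2.91 CPM), Ccne2, a cyclin of the G1/S step (2.05 CPM), and Orc1 (1.77 CPM). The order was different in myeloid precursor-like cells, where Dut, which removes dUTP (276 CPM), Mcm6 (230.4 CPM) and Rrm2, the small subunit of ribonucleotide reductase (224 CPM), led. Plasma-like cells were led by Mcm6 (80.6 CPM), Slbp (54.8 CPM) and Rfc2 (34.1 CPM). The lowest medians were those of Mcm10 (0.900 CPM), Gins1 (1.12 CPM) and Orc1 (1.66 CPM) in T-like cells and of Orc1 (7.43 CPM), Ccne2 (10.5 CPM) and Pole (16.7 CPM) in myeloid precursor-like cells, and those of Gins1 (1.07 CPM), Mcm10 (0.864 CPM) and Orc1 in plasma-like cells. Orc1 had no UMI in 7 of 12 plasma-like libraries, where 3 UMIs are 0.826 to 6.71 CPM in those 7. Counts come from the 3′ ends of transcripts, and how fully each gene was captured was not measured, so this order compares UMIs and not the amount of each mRNA.

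Individual cells were compared after each was thinned to 1000 UMIs, since depth differed between classes. Cells with a UMI of 3 or more different members made up a median of 63.2% of myeloid precursor-like cells, 8.83% of B-like cells, 7.20% of T-like cells and 2.62% of plasma-like cells. Without thinning the same medians were 98.4%, 83.0%, 76.4% and 74.7%, at median depths of 21395, 7862, 4994 and 13126 UMIs per cell. Immunoglobulin fills a part of each draw from a plasma-like cell, and its part in the low plasma-like shares was not tested. At 1000 UMIs Rrm2 was seen in a median of 16.4% of myeloid precursor-like cells, 0.841% of B-like cells, 0.692% of T-like cells and 0.527% of plasma-like cells. Rrm2 was seen in up to 5.45% of the plasma-like cells of a library. The plasma-like share with 3 or more members was highest in Eµ-PRMT5/TCL1 spleen 4 (13.2% of 720 cells), Eµ-TCL1 spleen 1 (12.8% of 646) and Eµ-TCL1 node 1 (10.9% of 220). The 25 mitosis genes summed to 882, 998 and 1055 CPM in these, and to 60.4 to 475 CPM in the other plasma-like libraries. Whether these plasma-like cells were dividing was not tested. Free RNA was read from 1126806 barcodes of 10 to 100 UMIs (library medians of 12 to 65), a range chosen after the data were seen. Pcna was seen in 7.06% of B-like, 7.29% of T-like, 3.22% of plasma-like and 11.4% of myeloid precursor-like cells, and Mcm5 in 2.21%, 2.35%, 0.1% and 13.9%. In the barcodes of 10 to 100 UMIs Pcna was seen in a median of 0.189%, Mcm5 in 0.0696% and Rrm2 in 0.0490%, against 37.4%, 13.1% and 3.95% of B-like and 32.5%, 10.8% and 2.18% of T-like cells without thinning. Per UMI, these barcodes were not poorer in the 3 genes: a draw of 1000 of their UMIs would hold Pcna in a median of 9.43%, Mcm5 in 3.58% and Rrm2 in 2.80% of draws. B-like cells exceeded that share in 2, 1 and 2 of 20 libraries in the same order, and T-like cells in 7, 1 and 0 of 20. Plasma-like cells exceeded it in 0, 1 and 1 of 12, and myeloid precursor-like cells in 4, 8 and 8 of 8. How many of a cell's UMIs are free RNA was not measured, so the B-like and T-like shares at 1000 UMIs are given as values only.

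The members were next compared within B-like and T-like cells, between cells with and without a UMI of any of 25 mitosis genes, a list that shares no gene with the members. With cells pooled over libraries and thinned to 1000 UMIs, 43 of 43 members had a higher level in the B-like cells with a mitosis UMI, by a median ratio of 3.56, and 43 of 43 did in T-like cells, by a median ratio of 2.63. Among roles, nucleotide supply genes had the largest median in the pooled cells (6.98 in B-like and 6.66 in T-like cells), and Rrm2 reached 17.5 in B-like and 25.8 in T-like cells. The smallest role medians were those of clamp and lagging strand genes in B-like cells (2.44) and of helicase genes in T-like cells (1.86). The order of roles depended on how libraries were weighted: with equal weights licensing genes were first in B-like cells (4.03, against 3.75 for nucleotide supply) and nucleotide supply genes in T-like cells (5.15), while clamp and lagging strand genes (1.92 in B-like cells) and polymerase and primase genes (1.58 in T-like cells) were last. Licensing genes split among themselves: the ratio of Cdc6 was 14.9 in B-like and 28.3 in T-like cells, while that of Cdt1 was 1.22 and 1.36. Clspn, the claspin adaptor of the replication checkpoint, had ratios of 14.7 and 31.7. With equal weights Rrm2 was at 9.34 and 16.98, Cdc6 at 8.11 and 36.3 and Clspn at 8.45 and 28.4, and in T-like cells Cdc6 was higher with a mitosis UMI in only 10 of 19 libraries. Cdt1, Pold1 (1.05 in B-like cells), Rfc2 (1.31 in T-like cells) and Pola2 (1.08 in T-like cells) were the least different between the cells with and without a mitosis UMI.

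These ratios were also read within libraries, because Eµ-PRMT5 spleen 4 supplied 19.4% of the 8944 B-like cells with a mitosis UMI. The summed members were higher in cells with a mitosis UMI in 20 of 20 libraries for B-like cells (ratio 1.05 to 3.92, median 2.04) and in 18 of 19 for T-like cells (0.895 to 3.67, median 1.74). With libraries weighted equally the median ratio over members was 2.43 in B-like and 2.10 in T-like cells, and 42 of 43 members stayed above 1 in each class. The exception was Pold1, the catalytic subunit of polymerase delta, at 0.973 in B-like and 0.861 in T-like cells. In B-like cells Pold1 was higher with a mitosis UMI in 10 of 20 libraries, against 17 of 20 for Rrm2. Spib, a transcription factor gene of B cells, starts 674 bases downstream of Pold1 on the same strand and had a median of 193 CPM in B-like and 0.459 CPM in T-like cells; whether Spib reads were counted in part as Pold1 was not tested. By promoter letters, the median ratio was 3.89 for the 14 members with a match and 3.56 for the 21 without in B-like cells, and 2.93 and 2.62 in T-like cells.

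**Figure D2:**
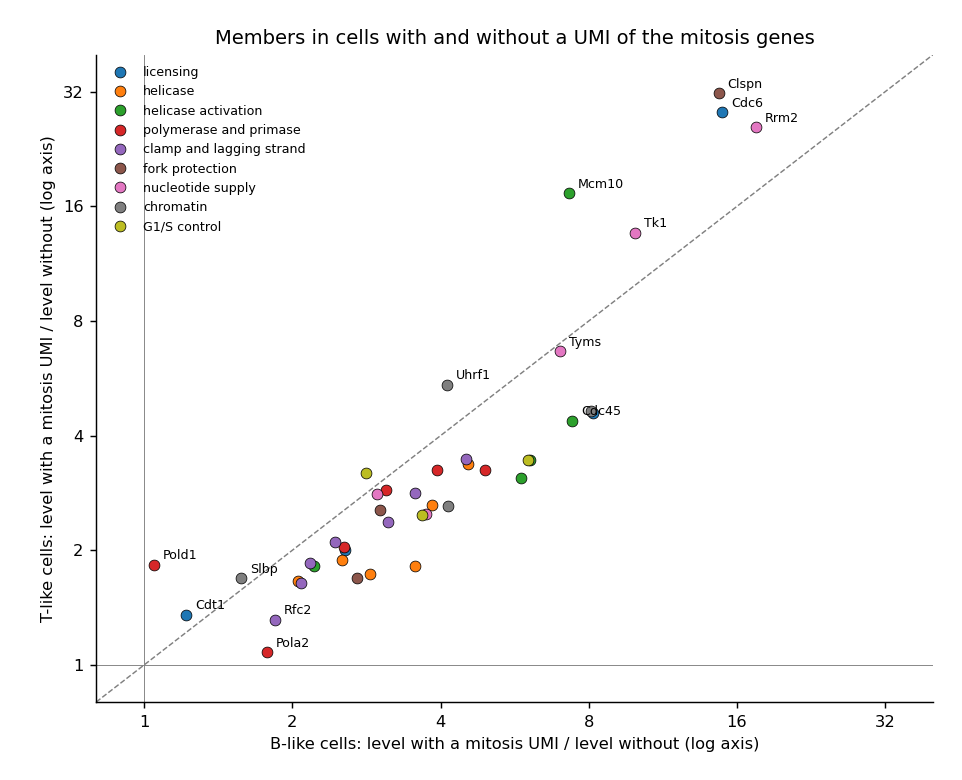
Ratio of levels between cells with and without a UMI of 25 mitosis genes, 1 point per member, in B-like cells (x axis) and T-like cells (y axis), both logarithmic, with cells pooled over libraries and thinned to 1000 UMIs. All points lie above 1 on both axes; Rrm2 (17.5 and 25.8), Clspn and Cdc6 lie far out, and Cdt1 (1.22 and 1.36) and Pold1 (1.05 in B-like cells) lie near 1 in B-like cells.

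In B-like cells of the spleens, most members were higher in Eµ-PRMT5 than in Eµ-TCL1 mice as group averages, but the difference was carried by 1 library and no member passed the test. The summed level was 1371, 1078, 1136, 3617 and 849 CPM in Eµ-PRMT5 spleens 1 to 5 and 1806, 712, 822 and 972 CPM in Eµ-TCL1 spleens 1 to 4, with means of 1610 ± 1137 (SD, n = 5) and 1078 ± 497 (SD, n = 4). The groups overlapped, with Eµ-PRMT5 spleen 4 far above all others and Eµ-TCL1 spleen 1 second. In these bulk sums per class, more dividing cells and more RNA per cell cannot be told apart. B-like cells were also read after thinning to 1000 UMIs. Of these, 11.9%, 7.61%, 9.01%, 52.6% and 4.10% had 3 or more members in Eµ-PRMT5 spleens 1 to 5. The Eµ-TCL1 spleens had 15.8%, 2.99%, 5.28% and 6.21%. A mitosis UMI was seen in 65.8% of cells in Eµ-PRMT5 spleen 4 and in 9.26 to 25.3% in the others. Cells without one held 2.20 member UMIs per 1000 in that spleen and 0.643 to 1.28 in the others. The part of either in the sums was not tested.

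Among licensing genes, Cdc6 and Orc1 had the largest differences of all members. Cdc6 stood at 1.77, 5.19, 0.467, 50.4 and 2.76 CPM in Eµ-PRMT5 spleens and in the Eµ-TCL1 group at 10.3, 0.814, 0.816 and 2.64 CPM. The fitted log2 difference of Cdc6 was 2.01 ± 1.25 (SE; edgeR quasi-likelihood adjusted p = 0.403). Orc1 was 2.32, 1.11, 0.817, 12.1 and 1.15 CPM against 2.63, 0.573, 0.381 and 0.673 CPM (1.97 ± 0.95, edgeR adjusted p = 0.287). For both genes the highest library was Eµ-PRMT5 spleen 4 and the other spleens of the 2 groups overlapped. Without that library the difference was -0.80 for Cdc6 and 0.21 for Orc1. Cdt1 was different, at 260.3, 77.8, 126, 92.9 and 64.0 CPM in Eµ-PRMT5 spleens and 58.7, 44.9, 50.9 and 42.7 CPM in Eµ-TCL1 spleens. Every Eµ-PRMT5 value of Cdt1 lay above every Eµ-TCL1 value, and the highest library was spleen 1 rather than spleen 4. Its log2 difference was 1.23 ± 0.34 with an edgeR adjusted p of 0.114 over 11966 genes, and DESeq2 gave an adjusted p of 0.0157. Without Eµ-PRMT5 spleen 4 the difference of Cdt1 was 1.22 (edgeR adjusted p = 0.0608), without Eµ-PRMT5 spleen 1 it was 0.81 (0.224), and with sex as a covariate it was 1.03 (0.342). The B-like cells of the 2 groups also differed in makeup. A single cluster held 99.3%, 85.5%, 98.4% and 12.3% of those of Eµ-PRMT5 spleens 1, 2, 3 and 5. It held 1.17% of those of Eµ-TCL1 spleen 3, while 99.8% of those of Eµ-PRMT5 spleen 4 lay in another cluster. The part of this makeup in the differences of Cdt1 and the other members was not tested.

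Mcm5, a helicase subunit, had 32.7, 21.9, 23.5, 106 and 14.7 CPM in the Eµ-PRMT5 spleens and 51.7, 7.50, 13.3 and 22.9 CPM in the Eµ-TCL1 spleens (0.84 ± 0.72, edgeR adjusted p = 0.556). Apart from spleen 4, the Eµ-PRMT5 values of Mcm5 lay between the lowest and the highest Eµ-TCL1 value, and without it the difference was -0.25. Pcna, the sliding clamp, was 126, 94.9, 94.5, 185 and 82.1 CPM against 95.8, 42.9, 47.8 and 43.5 CPM (1.01 ± 0.38, edgeR adjusted p = 0.182). Only Eµ-TCL1 spleen 1 reached into the Eµ-PRMT5 range for Pcna, and the difference without Eµ-PRMT5 spleen 4 was 0.59.

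Nucleotide supply genes varied most between the 13 spleens, with a median SD of 1.49 on the log2(CPM + 1) scale, followed by chromatin (1.17) and helicase activation genes (1.12), while Slbp, a chromatin gene, had an SD of 0.45. Rrm2 was 3.00, 13.7, 2.57, 185 and 7.36 CPM in Eµ-PRMT5 spleens and 41.0, 4.73, 4.57 and 14.4 CPM in Eµ-TCL1 spleens (1.65 ± 1.25, edgeR adjusted p = 0.498). Uhrf1, which brings DNMT1 to new DNA, was 8.72, 12.2, 5.37, 85.1 and 9.43 CPM against 54.7, 8.65, 11.3 and 23.6 CPM (0.18 ± 0.86, adjusted p = 0.934). For both, Eµ-PRMT5 spleen 4 was highest and Eµ-TCL1 spleen 1 next, and the remaining libraries overlapped. The difference without Eµ-PRMT5 spleen 4 was -1.56 for Rrm2 and -1.68 for Uhrf1. Slbp was 211, 149, 158, 195 and 104 CPM against 128, 100.2, 87.6 and 105 CPM (0.58 ± 0.26, edgeR adjusted p = 0.252), with Eµ-PRMT5 spleen 5 inside the Eµ-TCL1 range, and 0.36 without spleen 4. E2f1, the activating E2F factor, was one of 2 members with a lower fitted level, at 3.54, 5.56, 4.90, 21.7 and 4.83 CPM against 15.8, 4.22, 7.07 and 10.8 CPM (-0.09 ± 0.63, edgeR adjusted p = 0.957). Pold1, the other, was 45.9, 64.5, 48.8, 95.1 and 61.0 CPM against 111, 89.3, 88.5 and 32.2 CPM (-0.36 ± 0.41, edgeR adjusted p = 0.672). E2f1 and Pold1 overlapped between the groups and were at -1.22 and -0.73 without Eµ-PRMT5 spleen 4.

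For other members Eµ-PRMT5 spleen 4 was also highest, but the library next to it varied. Orc6, a subunit of the origin recognition complex, had 57.4, 28.5, 38.4, 130.5 and 25.8 CPM in Eµ-PRMT5 spleens and 44.0, 23.5, 23.4 and 29.7 CPM in Eµ-TCL1 spleens (0.97 ± 0.51). Rpa2, a subunit of the single-strand binding protein, had 53.3, 51.5, 43.5, 114.6 and 31.5 CPM against 45.3, 21.8, 26.3 and 39.3 CPM (0.85 ± 0.44). Both genes overlapped between the groups, Eµ-PRMT5 spleen 1 was second for each, and without Eµ-PRMT5 spleen 4 they were at 0.12 and 0.23. Fitted differences were 1.20 ± 1.04 for Gins2, 0.72 ± 0.63 for Mcm2, 0.10 ± 0.48 for Mcm6 and 0.29 ± 0.89 for Cdc45 among the helicase genes and their activators. The polymerase genes were at 0.16 ± 0.56 for Pola1, 0.42 ± 0.77 for Pole and 0.57 ± 0.54 for the primase gene Prim1. Lagging strand and clamp loader genes had 0.88 ± 0.76 for Lig1, 0.57 ± 0.39 for Fen1 and 0.63 ± 0.67 for Rfc4. The remaining values were 0.86 ± 0.97 for Chaf1a, 0.53 ± 0.84 for Ccne1, 0.41 ± 0.58 for Tipin and 0.42 ± 1.19 for Clspn, and none of these members had an edgeR adjusted p under 0.318. Without Eµ-PRMT5 spleen 4 Fen1 stayed above 0 (0.16), and the other 13 of these 14 ran from -2.78 (Clspn) to -0.20 (Mcm2).

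Counted over the list, 41 of 43 members had a higher fitted level in Eµ-PRMT5 B-like cells, with a median log2 difference of 0.71 against 0.03 over all 11966 genes tested. edgeR called 0 members at adjusted p below 0.05, where it called 1 gene in all (0.00836%). Cdt1, Pcna and Slbp, 3 of 43, had an edgeR p below 0.05 before adjustment, where 18.8% of all genes did, and DESeq2 called Cdt1 alone, where it called 6.54% of all genes. Groups that did not overlap in CPM were found for 1 member, Cdt1, and for 5.2% of all genes (5.97%, with 1 member, after TMM scaling of library sizes). Each of these shares of the members is below the background share.
Without Eµ-PRMT5 spleen 4 the median over the members turned to -0.47, 10 of 43 were higher and 11 had an unadjusted p below 0.05 (28.4% of all genes in that fit), while without Eµ-TCL1 spleen 1 the median was 1.27, 42 were higher and 12 had an unadjusted p below 0.05 (18.3% of all genes in that fit). Leaving out any other single library kept the median between 0.49 and 0.90. The mitosis genes moved with the same library, with a summed level of 1906 CPM in Eµ-PRMT5 spleen 4 and 136 to 190.1 CPM in the other Eµ-PRMT5 spleens, and 63.5% of the cells of the cluster that holds it had a Mki67 UMI. T cell markers summed to 24.4 to 150 CPM in B-like cells of Eµ-PRMT5 spleens (7 to 9 of 9 with a UMI) and 6.21 to 104 CPM in Eµ-TCL1 spleens (8 to 9 of 9), with the highest value in Eµ-PRMT5 spleen 4. Myeloid precursor markers summed to 176 to 312 CPM (1 to 8 of 8) and 161 to 236 CPM (6 to 7 of 8), again highest in Eµ-PRMT5 spleen 4, but nearly all of this was Calr, a chaperone gene that most cells express. The other 7 markers together were at 0 to 5.04 CPM in Eµ-PRMT5 spleens, 2.67 CPM in spleen 4, and at 0.332 to 3.42 CPM in Eµ-TCL1 spleens. Plasma markers summed to 470 to 2639 CPM (7 to 8 of 8 with a UMI) in Eµ-PRMT5 and 1366 to 4069 CPM (8 of 8) in Eµ-TCL1 spleens, and erythroid markers to 1.84 to 463 CPM (4 to 8 of 8, highest in spleen 2) and 3.73 to 191 CPM (7 to 8 of 8). Mzb1 was the highest plasma marker in each of these spleens, at 1793 of 2347 CPM in Eµ-PRMT5 spleen 4. The part of these markers in the result was not tested.

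**Figure D3:**
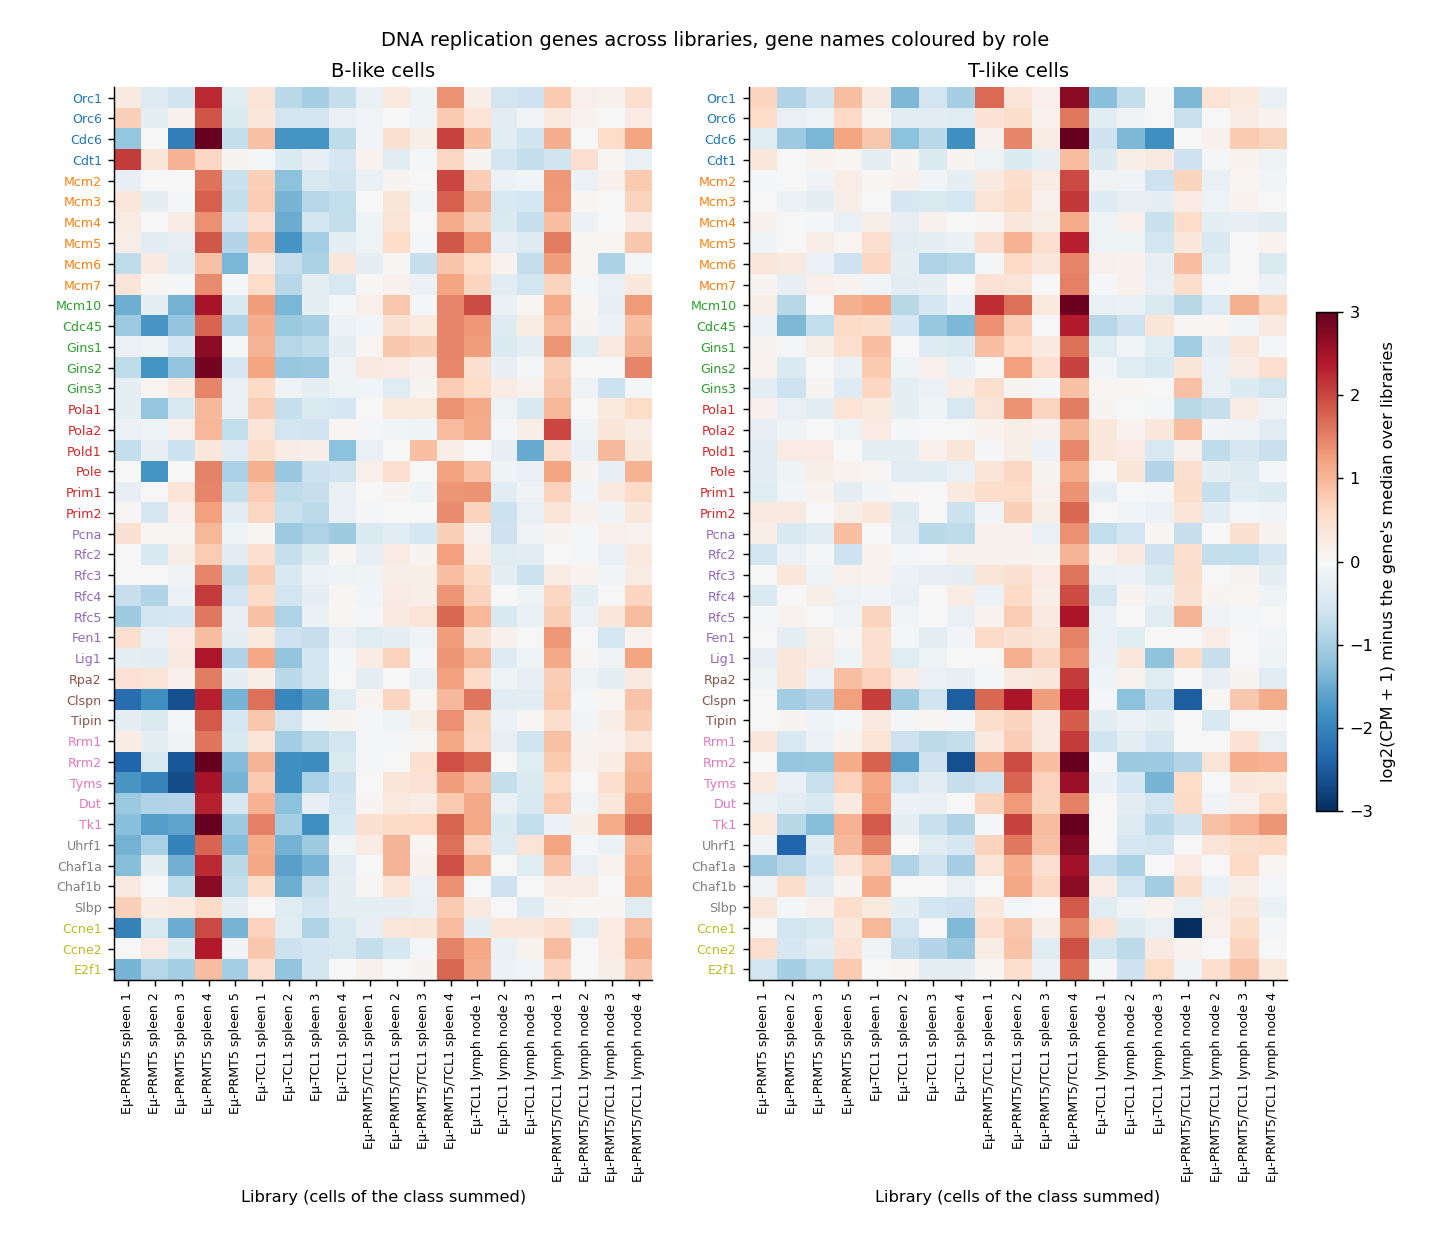
Level of each of the 43 members (rows, by role) in each library (columns, by group) in B-like and T-like cells, as log2(CPM + 1) minus the median of that gene over libraries, with the colour scale limited to 3 in each direction. In B-like cells Eµ-PRMT5 spleen 4 is the highest library for 31 of 43 members, and in T-like cells Eµ-PRMT5/TCL1 spleen 4 is for 41 of 43; Eµ-PRMT5 spleen 4 is not drawn for T-like cells.

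Eµ-PRMT5/TCL1 spleens shared their control with the comparison above. In B-like cells 42 of 43 members had a higher fitted level in Eµ-PRMT5/TCL1 than in Eµ-TCL1 spleens, with a median log2 difference of 0.47 against -0.01 over all genes, yet none came near the threshold. The summed level was 1115, 1312, 1244 and 2731 CPM in Eµ-PRMT5/TCL1 spleens 1 to 4, a mean of 1601 ± 758 (SD, n = 4), and 3 of these 4 values lay between the lowest and the highest Eµ-TCL1 spleen. Cdc6 was 4.81, 7.49, 5.97 and 24.1 CPM (1.33 ± 1.27 against Eµ-TCL1), Orc1 1.39, 2.36, 1.504 and 6.00 CPM (1.22 ± 0.97), and Mcm4, which had the lowest p, 27.8, 40.2, 30.2 and 66.8 CPM against 43.4, 10.2, 20.4 and 18.2 CPM (0.68 ± 0.52), all at an edgeR adjusted p of 0.999. Spleen 4 was the highest Eµ-PRMT5/TCL1 library for all 3 genes, and Eµ-TCL1 spleen 1 overlapped with the other libraries. Chromatin genes (median log2 difference 0.81), licensing (0.76), helicase (0.75) and nucleotide supply (0.71) had the largest role medians, and fork protection the smallest (0.21). Gins3, a GINS subunit, was the only member with a lower fitted level (-0.01 ± 0.50), and Mcm6 was next (0.07 ± 0.50). In these B-like cells plasma markers summed to 1144 to 1770 CPM in Eµ-PRMT5/TCL1 and 1366 to 4069 CPM in Eµ-TCL1 spleens. T cell markers had 42.1 to 157 against 6.21 to 104 CPM, myeloid precursor markers 175 to 263 against 161 to 236 CPM. Cd3g alone was 118 of the 157 CPM, in Eµ-PRMT5/TCL1 spleen 2, and 55.4 of the 104 CPM, in Eµ-TCL1 spleen 3. Erythroid markers had 1.93 to 16.9 against 3.73 to 191 CPM. The part of these markers in the result was not tested.
No member had an edgeR p below 0.05 before adjustment (5.07% of all genes), no member had groups that did not overlap (3.23% of all genes, 3.43% after TMM scaling), and neither edgeR nor DESeq2 (0.267% of all genes) called any. Without Eµ-PRMT5/TCL1 spleen 4 the median was 0.23 with 38 members higher, and without Eµ-TCL1 spleen 1 it was 1.11 with 43 higher and 3 at an unadjusted p below 0.05 (8.25% of all genes in that fit); leaving out Eµ-TCL1 spleen 2 gave 0.25.

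Set against Eµ-PRMT5 spleens, the Eµ-PRMT5/TCL1 spleens showed no stable direction of the members in B-like cells. The median log2 difference was -0.23 with 12 of 43 members higher (-0.06 over all genes), and without Eµ-PRMT5 spleen 4 it was 1.01 with 40 higher and 21 at an unadjusted p below 0.05 (19.6% of all genes in that fit), while edgeR still called 0 members. Ccne2 was 0.872, 1.11, 1.91 and 7.62 CPM in Eµ-PRMT5/TCL1 spleens and 2.04, 2.59, 1.28, 14.97 and 1.84 CPM in Eµ-PRMT5 spleens (-1.10 ± 0.90, edgeR adjusted p = 0.692). Cdt1 was 65.7, 48.7, 59.0 and 92.99 CPM (-0.94 ± 0.34 against the Eµ-PRMT5 values above, edgeR adjusted p = 0.411) and was the 1 member with an unadjusted edgeR p below 0.05, where 10% of all genes had one. E2f1, at 11.98, 10.96, 11.5 and 38.3 CPM, had the largest positive difference (0.83 ± 0.63, edgeR adjusted p = 0.659), followed by Uhrf1 at 29.3, 51.1, 25.7 and 80.9 CPM (0.58 ± 0.85, adjusted p = 0.844). With Eµ-PRMT5 spleen 4 left out the differences were 0.56 for Ccne2, -0.92 for Cdt1, 1.96 for E2f1 and 2.44 for Uhrf1. For E2f1 and Uhrf1, each Eµ-PRMT5/TCL1 spleen lay above 4 of the 5 Eµ-PRMT5 spleens, all but spleen 4, and for E2f1 Eµ-PRMT5/TCL1 spleen 4 lay above all 5. Neither edgeR nor DESeq2 (1.36% of all genes) called a member, and no member had groups that did not overlap (2.01% of all genes, 2.62% after TMM scaling).

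**Figure D4:**
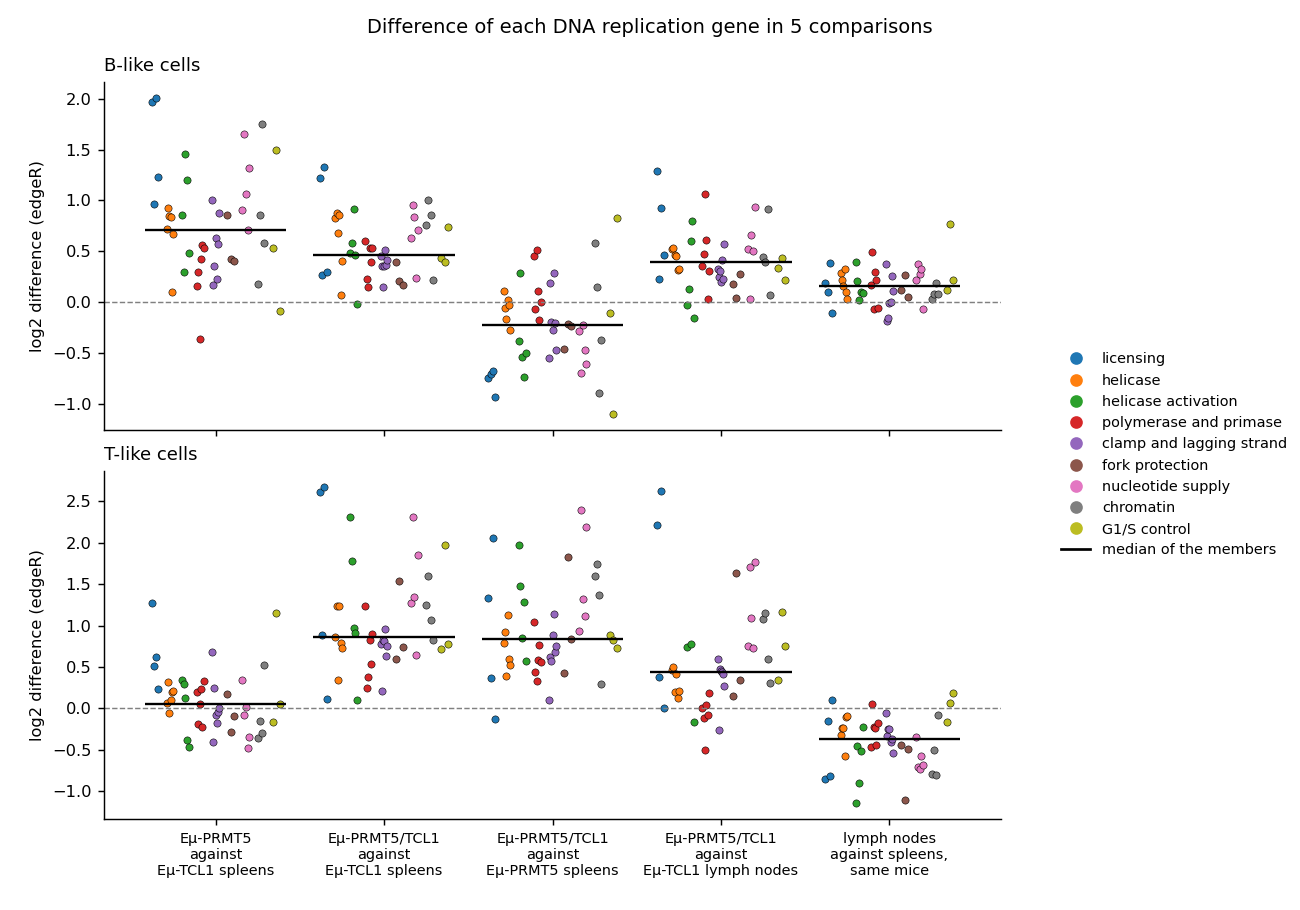
edgeR log2 difference of each member (points) by role in 5 comparisons, in B-like cells (one panel) and T-like cells (the other), with a line at the median over the members and 0 marked. The member medians are 0.71, 0.47 and -0.23 for the 3 spleen comparisons in B-like cells and 0.05, 0.86 and 0.84 in T-like cells, and no point passed an adjusted p of 0.05.

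In the lymph nodes, B-like cells of Eµ-PRMT5/TCL1 mice had slightly more replication transcripts than those of Eµ-TCL1 mice, within the spread between mice. The summed level was 1999, 1209, 1295 and 1707 CPM in Eµ-PRMT5/TCL1 nodes 1 to 4, a mean of 1553 ± 369 (SD, n = 4), and 1920, 1030 and 945 CPM in Eµ-TCL1 nodes 1 to 3, a mean of 1299 ± 539.8 (SD, n = 3). Eµ-TCL1 node 1 was higher than all Eµ-PRMT5/TCL1 nodes but node 1. Orc1 had the largest difference, at 3.75, 2.05, 2.03 and 2.86 CPM against 2.19, 0.880 and 0.778 CPM (1.29 ± 0.51, edgeR adjusted p = 0.856). Pold1 followed at 109, 65.3, 151 and 94.9 CPM against 75.8, 63.9 and 26.02 CPM (1.07 ± 0.39, edgeR adjusted p = 0.855). Both genes overlapped between the groups. Gins3 (-0.15 ± 0.36, edgeR adjusted p = 0.983) and Mcm10 (-0.03 ± 0.70, adjusted p = 0.999) were the 2 members with a lower fitted level.
Over the list 41 of 43 members were higher, with a median of 0.40 against 0.02 over all 10966 genes. Orc1 and Pold1 were the 2 of 43 members with an unadjusted edgeR p below 0.05 (5.74% of all genes), 0 were called by edgeR or by DESeq2 (0.401% of all genes), and 0 had groups that did not overlap (5.03% of all genes), or 1 member after TMM scaling (5.75% of all genes). Without Eµ-TCL1 node 1 the median was 0.81 and 11 members had an unadjusted p below 0.05 (8.81% of all genes in that fit). It was 0.20 without Eµ-TCL1 node 2 and 0.23 without Eµ-PRMT5/TCL1 node 4, each with 1 such member (3.81% and 4.83% of all genes), and 0.29 without Eµ-TCL1 node 3, with 0 (2.97%).

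Node and spleen of the same mouse were close in B-like cells. The ratio of the summed level in the node to that in the spleen was 1.06, 1.45 and 0.973 in the Eµ-TCL1 mice and 1.084, 1.301, 1.041 and 0.732 in the Eµ-PRMT5/TCL1 mice, above 1 in 5 of 7. With the mouse as a block, the median log2 difference of the members was 0.15 (36 of 43 higher in nodes) against 0.02 over all 12190 genes. Pola2, the B subunit of polymerase alpha, had the lowest p (0.49 ± 0.16, edgeR adjusted p = 0.231). Its levels in the nodes were 37.9, 16.5 and 19.2 CPM in Eµ-TCL1 mice and 71.9, 15.5, 22.3 and 20.04 CPM in Eµ-PRMT5/TCL1 mice, against 22.8, 11.2 and 17.7 CPM and 33.8, 16.2, 15.5 and 15.96 CPM in the spleens of the same mice in the same order. The Pola2 level was higher in the node in 6 of 7 mice. Ccne2 had the largest difference (0.77 ± 0.33, edgeR adjusted p = 0.360) while Rfc2 (-0.19 ± 0.16, adjusted p = 0.681) and Rfc3 (-0.15 ± 0.13) had the lowest values. edgeR called 0 members and 6 of all genes (0.0492%), Pola2 and Ccne2 were the 2 members with an unadjusted p below 0.05 (12.6% of all genes), and DESeq2 called 0 members (3.14% of all genes); without Eµ-PRMT5/TCL1 spleen 4 and its node 6 members had such a p (15.8% of all genes in that fit). Leaving out Eµ-TCL1 spleen 2 and its node brought the median to 0.04, and Eµ-PRMT5/TCL1 spleen 2 and its node to 0.08.

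Whether the node-spleen difference depended on genotype was tested as an interaction. Over the members the median of the interaction was -0.13 (11 of 43 above 0), and without single mice it ran from -0.37 to 0.06. Pold1 was the 1 member with an unadjusted p below 0.05, where 1.86% of all genes had one. In Eµ-TCL1 mice Pold1 was lower in the node in 3 of 3 mice (75.8, 63.9 and 26.02 CPM against 111, 89.3 and 32.2 CPM in the spleens), and in Eµ-PRMT5/TCL1 mice it was higher in the node in 4 of 4 mice (109, 65.3, 151 and 94.9 CPM against 87.7, 65.2, 145 and 77.2 CPM). The interaction of Pold1 was 0.78 ± 0.26 (edgeR adjusted p = 1), followed by Mcm6 (0.29 ± 0.40), and the lowest values were those of Rrm2 (-0.80 ± 0.56) and Mcm10 (-0.79 ± 0.52). edgeR and DESeq2 each called 0 genes of 12190.

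T-like cells, in which the transgene promoter is not meant to be active, gave larger counts. The mean summed level was highest in Eµ-PRMT5/TCL1 spleens, with overlap between the groups and no member past the test. The summed level was 1316, 1645, 1278 and 3900 CPM in Eµ-PRMT5/TCL1 spleens 1 to 4, a mean of 2035 ± 1254 (SD, n = 4), against 1491, 938, 855 and 875 CPM in Eµ-TCL1 spleens, a mean of 1039.8 ± 303 (SD, n = 4). In Eµ-PRMT5 spleens 1, 2, 3 and 5 it was 1148, 1028, 1016 and 1330 CPM, and in Eµ-PRMT5 spleen 4, which had too few T-like cells for the tests, 2525 CPM on 46 cells. Eµ-PRMT5/TCL1 spleen 4 was far above the rest, and Eµ-TCL1 spleen 1 and Eµ-PRMT5 spleen 5 each lay above Eµ-PRMT5/TCL1 spleens 1 and 3. The high level of Eµ-PRMT5/TCL1 spleen 4 was not particular to T-like cells. That library was also the highest of all in plasma-like (1422 CPM), myeloid precursor-like (6740 CPM), NK-like (3691 CPM) and neutrophil-like cells (5084 CPM). It was not the highest in monocyte- or macrophage-like cells (1736 CPM). The levels in Eµ-PRMT5/TCL1 spleen 1 rest on 140 T-like cells, where 3 UMIs of a gene are 4.33 CPM.

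Of the helicase subunits, Mcm5 was 37.5, 55.4, 38.3 and 138 CPM in Eµ-PRMT5/TCL1 spleens and 37.1, 20.6, 21.3 and 23.1 CPM in Eµ-TCL1 spleens (1.23 ± 0.31). Mcm3 was 51.9, 58.5, 42.9 and 174 CPM against 38.9, 27.3, 28.5 and 26.8 CPM (1.24 ± 0.32). For both, every Eµ-PRMT5/TCL1 spleen lay above every Eµ-TCL1 spleen, for Mcm5 by a small margin over Eµ-TCL1 spleen 1. By role, licensing genes had the largest median (1.75), followed by nucleotide supply (1.34), chromatin (1.16), helicase activation (0.97) and helicase genes (0.83). Rrm1, the large subunit of ribonucleotide reductase, was 28.9, 39.3, 28.1 and 102 CPM against 31.3, 14.7, 13.1 and 13.8 CPM (1.27 ± 0.37), and Rrm2 was 23.1, 42.9, 19.98 and 203 CPM against 37.2, 2.67, 6.34 and 0.814 CPM (2.32 ± 0.98). Eµ-TCL1 spleen 1 overlapped with the Eµ-PRMT5/TCL1 spleens for both. Among the next lowest p values were those of Pola1 (1.24 ± 0.34) and of Rfc3, a clamp loader subunit (0.82 ± 0.23). The largest differences were in Cdc6 (2.67 ± 1.10) and Orc1 (2.61 ± 0.94), both counted in few UMIs, and the smallest in Gins3 (0.11 ± 0.28) and Cdt1 (0.11 ± 0.21). After adjustment over 10684 genes the edgeR p was 0.700 for the 8 genes above Gins3 and Cdt1, and no member passed.

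In the same comparison Orc6 was 34.6, 37.0, 27.5 and 77.6 CPM against 26.3, 20.1, 20.1 and 19.5 CPM (0.89 ± 0.29), and Mcm2 was 27.4, 32.6, 26.5 and 92.2 CPM against 23.5, 24.6, 21.2 and 18.4 CPM (0.86 ± 0.29). Neither overlapped. Tipin, which steadies the fork with TIMELESS, was 37.5, 41.5, 31.4 and 93.2 CPM against 31.5, 25.1, 26.8 and 25.2 CPM (0.75 ± 0.22), with Eµ-TCL1 spleen 1 just inside the other range. Larger differences with larger errors were those of Cdc45 (1.78 ± 0.66), Chaf1a (1.59 ± 0.59), Clspn (1.54 ± 0.94) and Uhrf1 (1.25 ± 0.69). Those of Gins2 (0.91 ± 0.36), Pole (0.82 ± 0.28), Rfc4 (0.81 ± 0.32), Mcm6 (0.80 ± 0.34), Lig1 (0.76 ± 0.25), Fen1 (0.63 ± 0.22) and Prim1 (0.54 ± 0.20) were close to the list's median. Ccne1 (0.72 ± 0.48) and Rpa2 (0.59 ± 0.40) had an unadjusted p above 0.05.

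Against Eµ-TCL1 spleens, 43 of 43 members had a higher fitted level in T-like cells of Eµ-PRMT5/TCL1 spleens, with a median of 0.86 against -0.03 over all genes. An unadjusted edgeR p below 0.05 was found for 28 members (65.1%), where 6.6% of all genes had one. By role these were 5 of 6 helicase genes, 5 of 7 clamp and lagging strand genes and 3 of 5 nucleotide supply genes among others. Groups that did not overlap were found for 7 members (Mcm2, Mcm3, Mcm5, Orc6, Pola1, Pole and Rfc3), where 2.79% of all genes had such groups (8 members and 3.15% after TMM scaling). edgeR called 0 members and 0 genes at adjusted p below 0.05, and DESeq2 called 0 members and 0 genes.
Without Eµ-PRMT5/TCL1 spleen 4 the median was 0.58 with 41 members higher and 11 at an unadjusted p below 0.05 (3.64% of all genes in that fit). Without Eµ-TCL1 spleen 2 there were 18 such members (5.59% of all genes), and without Eµ-TCL1 spleen 1 there were 34 (16.7%). Mitosis genes moved together with the members: 24 of 24 tested were higher, with a median of 1.62, and 8 had an unadjusted p below 0.05.

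Against Eµ-PRMT5 spleens, with the same Eµ-PRMT5/TCL1 libraries, 42 of 43 members were higher in T-like cells of Eµ-PRMT5/TCL1 spleens, with a median of 0.84 (-0.02 over all genes) and 25 at an unadjusted edgeR p below 0.05, where 11.5% of all genes had one. Rfc2, another clamp loader subunit, had the lowest p, at 66.4, 65.8, 63.4 and 124 CPM against 40.8, 53.1, 58.1 and 38.9 CPM (0.62 ± 0.16, edgeR adjusted p = 0.337). Its groups did not overlap. Rrm2, at 10.3, 4.08, 4.15 and 23.4 CPM in Eµ-PRMT5 spleens, had the largest difference (2.40 ± 0.98, adjusted p = 0.397), followed by Tk1, the S phase thymidine kinase, at 4.33, 21.3, 9.51 and 76.3 CPM against 5.73, 2.04, 1.25 and 10.2 CPM (2.19 ± 0.88, edgeR adjusted p = 0.393). Both overlapped between the groups. Cdt1 (-0.13 ± 0.21) and Pcna (0.10 ± 0.37) had the smallest. Groups that did not overlap were found for 10 members (6.8% of all genes) and for 6 after TMM scaling (7.85%), and neither edgeR nor DESeq2 (0.515% of all genes) called a member. Without Eµ-PRMT5/TCL1 spleen 4 the median was 0.48 with 10 at an unadjusted p below 0.05 (12.3% of all genes in that fit), and without Eµ-PRMT5 spleen 2 there were 16 (9.33%).

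Eµ-PRMT5 and Eµ-TCL1 spleens, compared with each other on the same libraries, had a median of 0.05 in T-like cells (25 of 43 members higher, -0.03 over all genes). Rfc2 was the 1 member with an unadjusted edgeR p below 0.05 (10.4% of all genes) and the 1 whose groups did not overlap (7.08% of all genes, 7.35% after TMM scaling), at a lower level in Eµ-PRMT5 spleens (-0.41 ± 0.16, adjusted p = 0.428). Orc1 (1.27 ± 0.90, edgeR adjusted p = 0.635) and Ccne2 (1.15 ± 0.60, adjusted p = 0.522) had the largest positive differences, and Dut (-0.47 ± 0.34, adjusted p = 0.635) and Gins3 (-0.47 ± 0.27, adjusted p = 0.562) the lowest values. Neither edgeR nor DESeq2 (0.702% of all genes) called a member.

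The T-like cells of these groups differed in makeup. A cluster of 3100 cells led by Gzmk, Gzmb and Pdcd1, the genes of 2 granzymes and of the PD-1 receptor, held 28.6%, 35.5%, 22.1% and 54.9% of the T-like cells of Eµ-PRMT5/TCL1 spleens 1 to 4. In Eµ-TCL1 spleens 1 to 4 its share was 12.7%, 6.81%, 1.84% and 0.667%, and spleens 1, 2, 3 and 5 of the Eµ-PRMT5 group had 14.7%, 16.4%, 9.74% and 0.511%. In Eµ-PRMT5 spleen 4 the cluster held 45 of 46 T-like cells (97.8%). Eµ-PRMT5/TCL1 spleen 4 also supplied 54.7% of another cluster of 548 T-like cells, of which 38.3% had a Mki67 UMI, and Eµ-TCL1 spleen 1 supplied 69.6% of a cluster of 1843. In the cluster of 548 the 300 cells of Eµ-PRMT5/TCL1 spleen 4 had a summed level of 2110 CPM, below the 3900 CPM of all T-like cells of that library. The 118 cells of Eµ-PRMT5 spleen 5 in it had 6725 CPM and the 39 of Eµ-PRMT5/TCL1 node 3 had 6222 CPM. Every Eµ-PRMT5/TCL1 spleen had a larger share of the Gzmk-led cluster than the other spleens except Eµ-PRMT5 spleen 4. The members' summed level was higher in this cluster than in the other T-like cells of the same library in all 16 libraries where both could be read: in Eµ-PRMT5/TCL1 spleens it was 1809, 2779, 2176 and 4856 CPM inside and 1105, 831, 981 and 2163 CPM outside. Outside the cluster the Eµ-TCL1 spleens had 1468, 892, 805 and 873 CPM, and only Eµ-PRMT5/TCL1 spleen 4 lay above that range.

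With that cluster left out, a step chosen after the data were seen, the Eµ-PRMT5/TCL1 spleens had a median log2 difference of the members of 0.27 from their Eµ-TCL1 counterparts in place of 0.86, with 35 of 42 tested members higher and 2 at an unadjusted p below 0.05, where 5.18% of all genes in that fit had one. Against Eµ-PRMT5 spleens it was 0.31 in place of 0.84, with 34 of 42 higher and 2 at such a p (4.54% of all genes). Mcm5 was at 0.70 ± 0.27 and Mcm3 at 0.70 ± 0.28 against Eµ-TCL1 spleens (edgeR adjusted p = 0.866 for each), while Rrm1 was at 0.15 ± 0.33 (0.989). B cell markers summed to 28.2 to 221 CPM in T-like cells of Eµ-PRMT5/TCL1 spleens and 38.5 to 112 CPM in Eµ-TCL1 spleens, with 8 of 8 seen in every library. Neutrophil markers reached 594 CPM in Eµ-PRMT5/TCL1 spleen 2 (7.21 to 594 CPM in the group, 2 to 7 of 8 seen, against 4.01 to 189 CPM and 4 to 8 of 8). Myeloid precursor markers summed to 202 to 350 CPM (1 to 8 of 8 seen) against 109 to 263 CPM (2 to 8 of 8). Calr made up nearly all of these sums too, and the other 7 together were at 0 to 9.64 CPM against 0.542 to 10.9 CPM. In Eµ-PRMT5/TCL1 spleen 4, with the highest sum, they were at 4.04 CPM, where Elane and Igfbp4 had a UMI and Mpo, Prtn3, Ctsg, Ms4a3 and Cebpe were at 0. The part of these markers in the result was not tested.

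**Figure D5:**
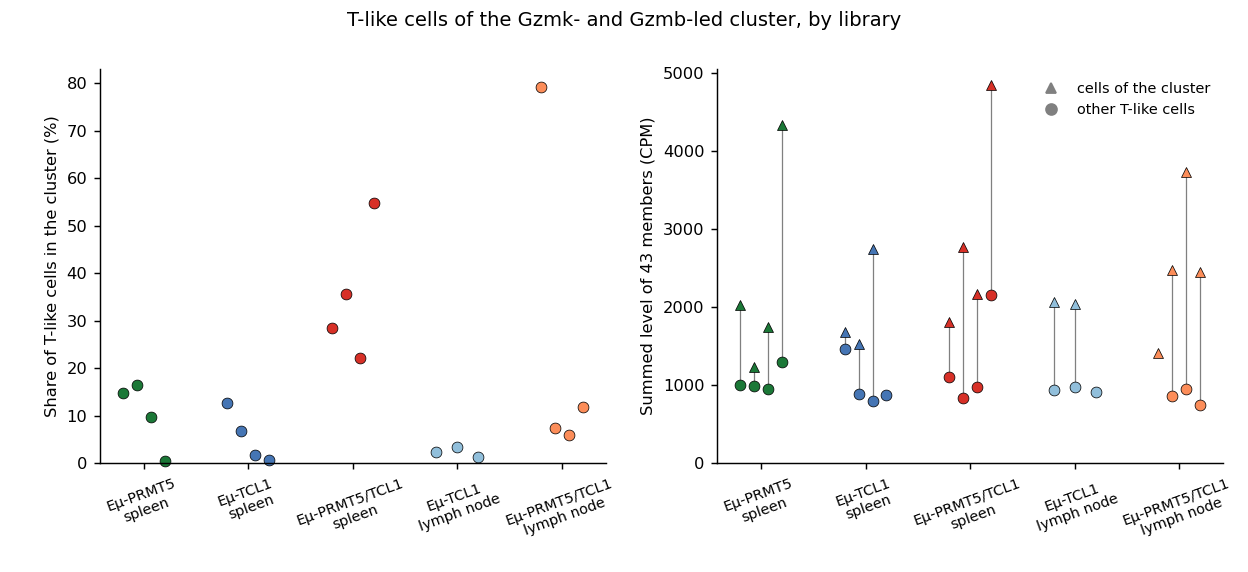
Left, share of T-like cells that belong to the cluster led by Gzmk and Gzmb, in percent, 1 point per library by group, for libraries with at least 50 T-like cells. Right, summed level of the 43 members in CPM inside that cluster (triangles) and in the other T-like cells (circles), with clusters under 20 cells not drawn: Eµ-PRMT5/TCL1 spleens have the largest shares (22.1 to 54.9%) of the spleens drawn, Eµ-PRMT5 spleen 4 (97.8% of 46 cells) is left out, and triangles lie above circles in each library that has both.

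In the lymph nodes, the lowest p values of the members in T-like cells were those of Tk1, Cdc6 and Tyms, but edgeR called none of them. Tk1 had the lowest p, at 2.58, 9.03, 10.3 and 12.6 CPM in Eµ-PRMT5/TCL1 nodes and 4.45, 3.14 and 2.14 CPM in Eµ-TCL1 nodes (1.77 ± 0.39, edgeR adjusted p = 0.209; DESeq2 adjusted p = 0.0163). The value of Eµ-PRMT5/TCL1 node 1 rests on 67 T-like cells, where 3 UMIs are 7.74 CPM, and it was the library that overlapped. Tyms, thymidylate synthase, was 20.6, 13.7, 17.4 and 16.9 CPM against 11.8, 9.28 and 4.58 CPM (1.09 ± 0.26, edgeR adjusted p = 0.213), and Rrm1 was 23.2, 23.3, 31.5 and 19.8 CPM against 14.9, 18.8 and 16.2 CPM (0.75 ± 0.23, edgeR adjusted p = 0.258). For Tyms and Rrm1 every Eµ-PRMT5/TCL1 node lay above every Eµ-TCL1 node. Cdc6 had the largest difference (2.62 ± 0.59, edgeR adjusted p = 0.213; DESeq2 adjusted p = 0.0282) but low counts, at 2.58, 2.89, 5.19 and 4.73 CPM against 1.35 and 0.409 CPM in Eµ-TCL1 nodes 1 and 2, with 0 UMIs in Eµ-TCL1 node 3, where 3 UMIs would be 0.915 CPM. Orc1 had the next largest difference (2.22 ± 0.90). Pold1 had the lowest value, at 18.1, 9.39, 11.3 and 10.003 CPM against 20.8, 19.8 and 11.6 CPM (-0.50 ± 0.21, edgeR adjusted p = 0.342), followed by Rfc2 (-0.26 ± 0.22).
Of 41 members that passed the filter on low counts, 36 were higher in Eµ-PRMT5/TCL1 nodes with a median of 0.44 (0.00 over all 10447 genes), and 17 had an unadjusted edgeR p below 0.05, where 13.4% of all genes had one. All 5 nucleotide supply genes were among the 17. Groups that did not overlap were found for 5 members (Mcm3, Rrm1, Tyms, Cdc6 and Uhrf1), where 8.97% of all genes had such groups, and for 12 after TMM scaling (10.3%). edgeR called 0 members and DESeq2 called Cdc6 and Tk1, where it called 0.967% of all genes. Without Eµ-TCL1 node 2 there were 8 members with an unadjusted p below 0.05 (6.28% of all genes in that fit), without Eµ-PRMT5/TCL1 node 3 there were 9 (7.65%), and without Eµ-TCL1 node 1 or Eµ-PRMT5/TCL1 node 4 there were 11 (7.91% and 8.9%). The Gzmk-led cluster held 79.1%, 7.36%, 6.02% and 11.8% of T-like cells in Eµ-PRMT5/TCL1 nodes and 2.43%, 3.34% and 1.29% in Eµ-TCL1 nodes, and with it left out the median was 0.06 over 39 members with 6 at an unadjusted p below 0.05, where 22.7% of all genes in that fit had one, in a comparison of 3 against 3 nodes.

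In T-like cells the summed level was lower in the node than in the spleen in 4 of 4 Eµ-PRMT5/TCL1 mice and in 1 of 3 Eµ-TCL1 mice. The ratio of node to spleen was 0.646, 1.10 and 1.06 in Eµ-TCL1 mice and 0.758, 0.632, 0.941 and 0.332 in Eµ-PRMT5/TCL1 mice, below 1 in 5 of 7. The UMI cut for a cell was not the same in both tissues. In Eµ-TCL1 mice it was 2622, 2951 and 2784 in nodes against 3179, 2402 and 3033 in spleens, in the same order. In Eµ-PRMT5/TCL1 mice it was 1813, 1839, 1745 and 3589 against 2261, 4261, 4399 and 1896. T-like cells of few UMIs could thus enter 1 tissue of a mouse and not the other, and the part of this was not tested. Dut had the lowest p: 53.6, 42.01 and 35.7 CPM in Eµ-TCL1 nodes against 127, 47.1 and 53.4 CPM in the spleens of the same mice, and 80.0, 49.6, 59.9 and 79.3 CPM in Eµ-PRMT5/TCL1 nodes against 156, 85.1, 85.1 and 132 CPM. Dut was lower in the node in 7 of 7 mice (-0.57 ± 0.14, edgeR adjusted p = 0.194; DESeq2 adjusted p = 0.0292). Chaf1b, a subunit of the CAF-1 histone chaperone, had a difference of -0.80 ± 0.22 (edgeR adjusted p = 0.209; DESeq2 adjusted p = 0.0481), and the largest were in Mcm10 (-1.14 ± 0.70, edgeR adjusted p = 0.547) and Clspn (-1.11 ± 0.52, edgeR adjusted p = 0.413). E2f1 (0.19 ± 0.32) and Cdt1 (0.10 ± 0.21) were on the other side of 0, at edgeR adjusted p of 0.881 and 0.916. Marker sums of other cells in these T-like cells ranged as follows, spleens before nodes, Eµ-TCL1 spleen 3 included. Neutrophil markers spanned 4.01 to 189 then 0.136 to 7.02 CPM for Eµ-TCL1, 7.21 to 594 then 0 to 47.8 CPM for Eµ-PRMT5/TCL1. For B cell markers this was 38.5 to 112 then 24.1 to 38.3, and 28.2 to 221 then 20.6 to 49.1 CPM. For myeloid precursor markers it was 109 to 263 then 134 to 204, and 202 to 350 then 114 to 293 CPM. Their part was not tested. Over the list 4 of 43 members were higher in nodes, with a median of -0.37 (0.00 over all 10775 genes). An unadjusted edgeR p below 0.05 was found for 10 members, where 12.5% of all genes had one. edgeR called 0 members and 3 genes in all (0.0278%), while DESeq2 called Dut and Chaf1b, where it called 1.78% of all genes. Leaving out 1 mouse moved the count of 10 to between 6, without Eµ-PRMT5/TCL1 spleen 2 and its node (9.06% of all genes in that fit), and 15, without Eµ-PRMT5/TCL1 spleen 3 and its node (7.99%), and leaving out the Gzmk-led cluster gave a median of -0.19 over 40 members in 6 mice.

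Genes around the members were read in the same fits, from lists of 36 other replication genes, 21 genes of the E2F and RB axis, 13 of the replication checkpoint and 25 of mitosis. edgeR called 0 genes of any of these lists in any comparison with all libraries in the fit. In B-like cells of Eµ-PRMT5 against Eµ-TCL1 spleens the other replication genes had a median of 0.46 (30 of 36 tested higher), the checkpoint genes 0.36 (9 of 13), the mitosis genes 0.50 (15 of 25) and the E2F and RB genes 0.02 (12 of 20). For Eµ-PRMT5/TCL1 against Eµ-TCL1 the medians were 0.26, 0.12, 0.38 and 0.08 in the same order. The members had 0.71 and 0.47 in these 2 comparisons. Without Eµ-PRMT5 spleen 4, a step added for these lists after the data were seen, the medians for Eµ-PRMT5 against Eµ-TCL1 turned to -0.44 (11 of 36 higher, 1 called by edgeR), -0.32 (6 of 13, 0 called), -2.15 (0 of 25 higher, 5 called) and -0.41 (5 of 20, 0 called), beside -0.47 for the members, in a fit that called 561 of 11699 genes. For Eµ-PRMT5/TCL1 against Eµ-PRMT5 they went from -0.07, -0.06, -0.03 and -0.08 to 0.67, 0.32, 2.57 and 0.20, with 0 genes called.
In T-like cells, for Eµ-PRMT5/TCL1 against Eµ-TCL1, the other replication genes had a median of 0.20 (28 of 36 higher, 11 at an unadjusted p below 0.05), the E2F and RB genes 0.31 (17 of 20 higher, 1 at such a p) and the checkpoint genes 0.31 (9 of 13 higher, 3 at such a p), each below the 0.86 of the members, and the mitosis genes 1.62. Against Eµ-PRMT5 spleens 22 of 24 mitosis genes had an unadjusted p below 0.05, with a median of 2.08. In T-like cells of nodes compared with spleens 1 of 25 mitosis genes was higher, with a median of -0.63, beside -0.37 for the members, and between the nodes of the genotypes 22 of 24 were higher in Eµ-PRMT5/TCL1, with a median of 0.76, beside 0.44. The mitosis genes did not follow the members everywhere. In T-like cells of Eµ-PRMT5 against Eµ-TCL1 spleens 2 of 24 were higher, with a median of -0.44, beside 0.05 for the members, and in B-like cells between the nodes of the genotypes 13 of 25 were higher, with a median of 0.00, beside 0.40.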

How the data were processed

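The authors deposited unfiltered UMI counts per gene and droplet barcode from 10x 3′ libraries (GRCm38; the study names Cell Ranger 2.0.1, and the matrix headers name 3.1.0). These raw counts were used as deposited. Cells (87773) were barcodes above the 99th percentile of UMIs of the top 3000 divided by 10, with no more than 10% mitochondrial UMIs and a minimum of 200 genes, and 3542 likely doublets were removed with Scrublet scores. This UMI cut ran from 1745 to 4399 between libraries. Clusters (scanpy 1.11.5, Leiden, resolution 1, 30 components, 2000 variable genes without the members and the related lists; 37 clusters, 52 after splitting) were named from fixed markers; 1222 cells stayed unnamed. Counts were summed per class and library (at least 50 cells) and tested with edgeR 4.0.16 in R 4.3.3 (TMM, filterByExpr, quasi-likelihood, Benjamini-Hochberg over all genes), with mouse as a block between tissues. Alternatives were DESeq2 1.42.0, other size factors, no filter, immunoglobulin genes left out, members kept in the clustering, doublets kept, sex or replicate number as a term, and each library left out. Scripts were tested on simulated data. The members and lists were chosen with earlier results of these data known. Named genes were those with an adjusted p below 0.05, the 2 largest differences in each direction per comparison, fixed members of each role, and the 3 highest and lowest per class; others were named after their values were seen. Libraries are separate mice or tissues. Floors of 3 UMIs cover counting error only, while ± values are the SD over libraries or the SE of the edgeR fit, as marked. Levels need at least 20 cells.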

Additional observations from a re-analysis of the deposited data

Results flagged for a closer look

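Groups of 4 or 5 libraries were examined for a library far from the others, by Dixon's 95% criterion, which chance meets in about 1 group in 20; 30 of the 88 groups examined had one. For the summed level of the members these were, in B-like cells, Eµ-PRMT5 spleen 4 (3617 CPM) and Eµ-PRMT5/TCL1 spleen 4 (2731 CPM) and, in T-like cells, Eµ-TCL1 spleen 1 (1491 CPM) and Eµ-PRMT5/TCL1 spleen 4 (3900 CPM). In B-like cells Eµ-PRMT5 spleen 4 also stood apart for Cdc6 (50.4 CPM), Orc1 (12.1 CPM), Mcm5 (106 CPM), Rrm2 (185 CPM), E2f1 (21.7 CPM) and Uhrf1 (85.1 CPM). Eµ-PRMT5/TCL1 spleen 4 did so for Cdc6 (24.1 CPM), Pcna (151 CPM), Rrm2 (78.1 CPM), Slbp (222 CPM) and E2f1 (38.3 CPM). Eµ-TCL1 spleen 1 did so for Orc1 (2.63 CPM) and Pcna (95.8 CPM), and Eµ-PRMT5/TCL1 lymph node 4 had a Slbp level (99.8 CPM) far below the other nodes of its group. In T-like cells Eµ-TCL1 spleen 1 stood above its group for Mcm5 (37.1 CPM), Mcm3 (38.9 CPM), Rrm2 (37.2 CPM), Rrm1 (31.3 CPM), Tk1 (18.4 CPM) and Dut (127 CPM). Eµ-PRMT5/TCL1 spleen 4 stood above its group for Mcm3 (174 CPM), Cdc6 (42.4 CPM), Rrm2 (203 CPM), Rrm1 (102 CPM) and Rfc2 (124 CPM), and Eµ-PRMT5/TCL1 lymph node 1 for Rfc2 (85.1 CPM), on 67 cells. These genes were measured in the same cells, so the libraries recur and the cases are not independent.

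Pold1 in B-like cells was lower in the node than in the spleen in 3 of 3 Eµ-TCL1 mice and higher in 4 of 4 Eµ-PRMT5/TCL1 mice, and the mean node minus spleen difference of Eµ-TCL1 mice less that of Eµ-PRMT5/TCL1 mice was -33.4 CPM. The interaction had an edgeR adjusted p of 1, so the difference between genotypes did not pass after correction.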

How the results depend on the processing

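Over the alternatives run, the count of members called stayed at 0 in 84 of 87 settings and in all 85 fits that left out a library or mouse. The 3 exceptions were DESeq2, which called 1 member for Eµ-PRMT5 against Eµ-TCL1 spleens in B-like cells and 2 members each for lymph nodes of both genotypes and for nodes against spleens in T-like cells. The cause was not tested for these or for the changes that follow. In B-like cells, leaving out 1 library moved the median of the members from -0.475 to 1.275 for Eµ-PRMT5 against Eµ-TCL1 spleens and from -0.51 to 1.01 for Eµ-PRMT5/TCL1 against Eµ-PRMT5 spleens, where Eµ-PRMT5 spleen 4 turned the sign in each, and leaving out 1 mouse moved the interaction from -0.37 to 0.059 (above 0 without Eµ-TCL1 spleen 2 and its node). In T-like cells the range was -0.15 to 0.38 for Eµ-PRMT5 against Eµ-TCL1 spleens and 0.48 to 1.02 for Eµ-PRMT5/TCL1 against Eµ-PRMT5 spleens. Leaving out the Gzmk-led cluster, chosen after seeing the data, gave T-like medians of -0.021, 0.27 and 0.31 for the 3 spleen comparisons in the order Eµ-PRMT5 against Eµ-TCL1, Eµ-PRMT5/TCL1 against Eµ-TCL1 and Eµ-PRMT5/TCL1 against Eµ-PRMT5, and 0.062 for lymph nodes. With the replicate block the median was 0.087 for Eµ-PRMT5/TCL1 against Eµ-PRMT5 in B-like cells and -0.074 for Eµ-PRMT5 against Eµ-TCL1 in T-like cells, and the replicate block changed no call. The numbers do not pair mice: deviations of libraries with the same number correlated between -0.18 and 0.40. Without Eµ-PRMT5 spleen 4, a setting added for the related lists, their B-like medians were -0.44 (other replication genes), -0.32 (checkpoint), -2.15 (mitosis) and -0.41 (E2F and RB) for Eµ-PRMT5 against Eµ-TCL1 and 0.67, 0.32, 2.57 and 0.20 for Eµ-PRMT5/TCL1 against Eµ-PRMT5, each of the other sign than with all libraries.

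Single members with small or uneven differences also turned sign. Leaving out 1 library gave, in B-like cells, -1.22 to 0.28 for E2f1, -0.80 to 3.35 for Cdc6 and -1.56 to 2.70 for Rrm2 (Eµ-PRMT5 against Eµ-TCL1 spleens), -0.18 to 0.28 for Gins3 (Eµ-PRMT5/TCL1 against Eµ-TCL1 spleens), -1.97 to 0.56 for Ccne2 (Eµ-PRMT5/TCL1 against Eµ-PRMT5), -0.47 to 0.020 for Gins3 and -0.45 to 0.97 for Mcm10 (lymph nodes) and -0.15 to 0.69 for Mcm6 (interaction). In T-like cells it gave -0.067 to 0.37 for E2f1 and -0.0053 to 0.27 for Cdt1 (nodes against spleens), and -0.019 to 0.32 for Gins3 and -0.16 to 0.19 for Cdt1 (Eµ-PRMT5/TCL1 against Eµ-TCL1 spleens), which were at -0.21 and -0.10 without the Gzmk-led cluster. With no filter on low counts Gins3 was at 0.0018 for Eµ-PRMT5/TCL1 against Eµ-TCL1 in B-like cells. With the members kept in the clustering Mcm10 was at 0.010 in B-like cells of nodes, and Cdt1 at 0.10 for Eµ-PRMT5/TCL1 against Eµ-PRMT5 and -0.031 for nodes against spleens in T-like cells; with doublets kept these were 0.41, 0.10 and -0.023. Shares depend on the depth they are read at: Pcna was seen in 14.1% of B-like and 15.1% of T-like cells at 2000 UMIs and in 37.4% and 32.5% without thinning, and Rrm2 in 3.95% and 2.18% without thinning. Without immunoglobulin genes in the total, the mean level in plasma-like cells of Eµ-PRMT5 spleens was 749.8 CPM in place of 374 CPM. Levels from few cells, as in T-like cells of Eµ-PRMT5/TCL1 node 1, are limited by counting.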

Other observations

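Outside the 4 classes of the report, the members reached comparable or higher summed levels in other blood cells. Erythroid-like cells held 4276 to 4566 CPM in the 2 libraries that had at least 20 of them, on 81 cells. Neutrophil-like cells had a median of 1514 CPM over 14 libraries with a wide range (581 to 5084 CPM), NK-like cells 1272 CPM over 11 libraries (924 to 3691 CPM) and monocyte- or macrophage-like cells 1119 CPM over 16 libraries (534 to 2375 CPM). Erythroid-like cells were thus near the level of the myeloid precursor-like cells, and the other 3 classes had medians near those of the B-like and T-like cells. These are levels with no test.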
